A study of Mus musculus with 4 samples.

Results

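The cytosolic calcium-binding proteins described here are the products of 7 genes, *Calb1*, *Calb2*, *Ocm*, *Pvalb*, *S100a1*, *Calm2* and *Calm3*. They were picked by gene symbol from a table of 12814 genes, and all 7 were found in it. The table holds sequenced RNA from hair cells (HCs), the mechanosensory cells of the inner ear, and from the epithelial non-sensory cells (ENSCs) next to them. Both populations were sorted by flow cytometry from newborn *Atoh1/nGFP* mice (postnatal day 1, strain background C57BL/6). All 4 groups thus share genotype, strain and age and received no treatment other than sorting. Cochlear and vestibular HCs carried the green fluorescent protein together with the epithelial surface protein CD326, and cochlear and vestibular ENSCs carried CD326 alone. Inner ears of several mice were pooled for a sample. Each of the 4 groups had 1 column of values in the table, called a library here. The labels speak of triplicates, and whether a column holds 1 sample or several combined is not given in the sources used here. So no value below has a replicate error, no p-values are given, and a ratio compares 2 libraries and not 2 conditions.

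Values are quantile-normalized read signals with a floor of 20. The sorted values were identical in the 4 libraries, so they do not show differences in depth, and the true depth of each library is unknown. A signal of 20 is therefore an upper limit, and in 3 libraries the lowest signals above 20 did not rank genes either. Signals up to 24.25 in cochlear HCs, 22.75 in cochlear ENSCs and 30.5 in vestibular HCs were treated in the same way as the floor, and a fold against them is given as a lower bound computed against those limits. All 8 listed HC markers, such as *Myo7a* and *Pou4f3*, were higher in the HC library of either organ by 3-fold or more, and their summed signal ranged from 32007 to 37002 in HCs and from 1427 to 1837 in ENSCs. Of 4 epithelial markers, 3 were at least 3-fold lower in HCs than in ENSCs in the cochlea and 4 were in the vestibular organs. *Epcam*, the gene of CD326, had signals from 1017 to 7511, and *Krt8* was within the unranked low range in cochlear HCs. Of 8 supporting cell markers, 4 were lower and 0 higher in cochlear HCs, and 2 (*Epyc* and *Tecta*) were lower and 1 (*Sox2*) was higher in vestibular HCs. Of all genes, 8.39% were higher and 9.2% lower by 3-fold in cochlear HCs, and 13.8% and 14.3% were in vestibular HCs.

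Calcium enters hair cells through the transduction channels of the hair bundle and through the channels at their synapses, and cytosolic proteins bind it within moments. Most of these proteins hold calcium in a helix-loop-helix fold known as the EF-hand. Calbindin (*Calb1*), calretinin (*Calb2*) and the parvalbumins (*Pvalb*, and *Ocm*, which encodes oncomodulin) are regarded mainly as mobile buffers. *S100a1* encodes a small dimeric EF-hand protein, and calmodulin is a sensor that changes shape with calcium and then binds enzymes and channels. These proteins are widely used to tell hair cell types and inner ear neurons apart.

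*Calm2* and *Calm3* encode the same calmodulin protein, so the reads that tell them apart rest on silent differences and on the parts outside the coding sequence. Their first 50 coding nucleotides, the length of the reads that were aligned, are shown for that reason, with the positions at which the genes differ in capitals. There were 5 such positions.

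Calm2: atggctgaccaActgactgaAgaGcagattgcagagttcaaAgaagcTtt
Calm3: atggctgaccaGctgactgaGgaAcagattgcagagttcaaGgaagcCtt

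Over the whole coding sequence of 450 nucleotides *Calm2* and *Calm3* were alike at 372 positions (82.7%), and their longest identical run was 17 nucleotides, so that no stretch of 50 nucleotides was common to both. None of the 50-nucleotide stretches in the annotated coding transcripts of the 7 genes was shared with another of them. The transcript of *Calm2*, however, had exact copies of 414 of its 1156 stretches (35.8%) elsewhere in the mm9 genome. For *Calm3* these were 99 of 2331 (4.25%), and for *Calb1*, *Calb2*, *Ocm*, *Pvalb* and *S100a1* there were 0. How reads with several placements were counted is not given in the sources used here, so the level of *Calm2* is uncertain. *Ocm* and *Pvalb*, whose coding sequences were alike at 197 of 330 aligned nucleotides (59.7%), and *Calb1* and *Calb2* (515 of 781, 65.9%) could be told apart along their whole length.

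**Figure D1:**
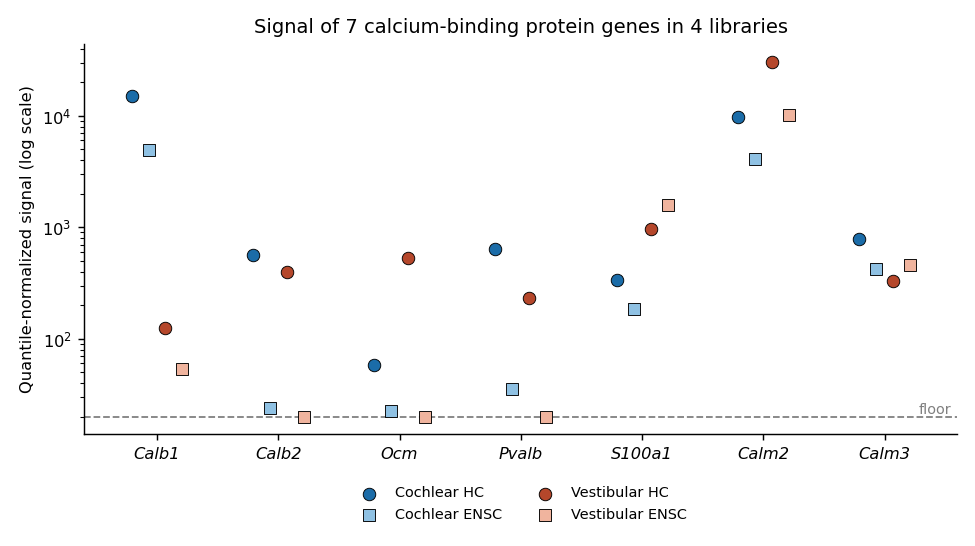
Quantile-normalized signal (log scale) of the 7 genes in the 4 libraries, 1 point per library, with circles for HCs, squares for ENSCs and a dashed line at the floor of 20. *Calb1* separated the organs, *Calb2* and *Pvalb* the HCs from the ENSCs, and *Ocm* stood out in vestibular HCs alone (533.75).

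The calbindin gene *Calb1* (ENSMUSG00000028222, chromosome 4, 15808411 to 15835211 in mm9, plus strand) reached a signal of 15030.5 in HCs of the cochlea and 4963 in its ENSCs. The vestibular signals were 126 in HCs and 53 in ENSCs. Both cochlear libraries were thus above both vestibular ones, and in each organ the HC library was the higher. Between organs the signal differed 119-fold in HCs (log2 ratio of cochlear to vestibular 6.90) and 93.6-fold in ENSCs (6.55). The log2 ratio of HC to ENSC signal was only 1.60 for the cochlea (3.03-fold) and 1.25 for vestibular cells (2.38-fold). The cochlear value stood just past 3-fold, and it fell just short of it when 100 was added to every signal (1.58). The vestibular value was 0.33 with correction for exonic length and GC content and also with the floor raised to 100. Between the organs, the values with 100 added were 6.06 for HCs and 5.05 for ENSCs, and the length and GC correction gave 5.45 for ENSCs. By signal, which is not divided by length, *Calb1* was the 23rd gene of the cochlear HC library and the 6269th of the vestibular HC library.

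Calretinin showed the opposite layout. *Calb2* (ENSMUSG00000003657, chromosome 8, 112661402 to 112692110, minus strand) had 563.75 in cochlear and 398.75 in vestibular HCs. The cochlear ENSCs had 24 and the vestibular ENSCs were at the floor. The HC libraries were high and the ENSC libraries low in either organ. The cochlear log2 ratio of HC to ENSC signal was 4.55 (23.5-fold), and vestibular HCs were at least 19.9-fold above vestibular ENSCs. With 100 added to every signal these log2 ratios were 2.42 and 2.06. The HC libraries themselves differed 1.41-fold (log2 ratio of cochlear to vestibular 0.50).

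The parvalbumin gene *Pvalb* (ENSMUSG00000005716, chromosome 15, 78021544 to 78036830, minus strand) followed *Calb2*, with a wider gap between the organs. Its signal was 640.75 in cochlear and 229.75 in vestibular HCs, against 35.25 in cochlear ENSCs and the floor in vestibular ENSCs. The HC to ENSC log2 ratio was 4.18 for the cochlea (18.2-fold), and the vestibular difference was at least 11.5-fold. With 100 added to every signal the cochlear value was 2.45. The vestibular call rested on a low level, and with the floor raised to 100 its log2 ratio was 1.20, under 3-fold. Cochlear HCs exceeded vestibular HCs 2.79-fold (log2 ratio 1.48), and correction of the ratios for exonic length and GC content took this value past 3-fold (1.75).

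The second parvalbumin, oncomodulin, was alone among the 7 genes in having a high signal in a single library. *Ocm* (ENSMUSG00000029618, chromosome 5, 144780673 to 144787539, minus strand) had 533.75 in vestibular HCs and 57.75 in cochlear HCs. Its signal was 22.25 in cochlear ENSCs, inside the range that does not rank genes, and it was at the floor in vestibular ENSCs. Vestibular HCs were 9.24-fold above cochlear HCs (log2 ratio of cochlear to vestibular -3.21) and at least 26.7-fold above vestibular ENSCs. Cochlear HCs were at least 2.54-fold above cochlear ENSCs. With 100 added to every signal the log2 ratios were 2.40 for vestibular HCs over ENSCs, 0.37 for cochlear HCs over ENSCs and -2.01 between the HC libraries. Both HC to ENSC ratios are lower bounds, so the difference between the organs in this ratio is not known. The parvalbumin genes thus had opposite orders in HCs, with *Pvalb* higher in cochlear and *Ocm* in vestibular cells.

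Calretinin and parvalbumin are also found in the neurons that contact hair cells, so the neuronal markers are given beside them. Of 10 listed markers 7 were among the genes analysed here, and 2 of these exceeded ENSCs at least 3-fold in cochlear HCs and 4 did so in vestibular HCs, where 8.39% and 13.8% of all genes did. The sodium channel gene *Scn9a* was lower in cochlear HCs (22 against 128.25), and 0 markers were lower in vestibular HCs. Their summed signal was 8440 and 8202 in the HCs of cochlea and vestibule, and 5425 and 467 in the respective ENSCs. Most of it came from *Isl1* (2957 to 3682 in HCs), which sensory epithelia also express, and from the neurofilament genes *Nefl* (2381 and 2470 in cochlear and vestibular HCs) and *Nefm* (1995 and 2121). *Stmn2*, a gene of growing neurons, had 30.75 and 22 in these libraries, and *Rbfox3* had 58 and 20. *Elavl4* was higher there, with 271.5 in cochlear and 586.75 in vestibular HCs against 101.25 and 20.5 in the respective ENSCs. Counting the low signals that do not rank genes with the floor, 1 of the 7 markers was there in cochlear HCs, 1 in cochlear ENSCs, 3 in vestibular HCs and 4 in vestibular ENSCs. Per the study's methods, requiring both GFP and CD326 was meant to keep GFP-bearing neurons out of the HC sort. The part of neurons in the *Calb2* and *Pvalb* signals was not tested. In libraries of sorted populations such as these, fewer cells that express a gene and less RNA per cell cannot be told apart.

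Upstream sequence of *Ocm* and *Pvalb* is shown because these related genes had opposite orders in the HC libraries, and that of *Calm3* because its signal differed least between the libraries. Sequences are the 250 nucleotides before the start site from RefSeq (build GRCm38.p6, minus strand, 5′ to 3′), taken at chr5:144050610-144050859 for *Ocm*, chr15:78206401-78206650 for the upstream start of *Pvalb*, and chr7:16924033-16924282 for *Calm3*. Capitals mark each C followed by a G.

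Ocm: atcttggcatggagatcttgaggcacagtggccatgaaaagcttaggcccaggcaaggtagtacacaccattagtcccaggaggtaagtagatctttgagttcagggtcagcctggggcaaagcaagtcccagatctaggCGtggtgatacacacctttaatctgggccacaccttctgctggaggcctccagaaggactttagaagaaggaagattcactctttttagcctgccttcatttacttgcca
Pvalb: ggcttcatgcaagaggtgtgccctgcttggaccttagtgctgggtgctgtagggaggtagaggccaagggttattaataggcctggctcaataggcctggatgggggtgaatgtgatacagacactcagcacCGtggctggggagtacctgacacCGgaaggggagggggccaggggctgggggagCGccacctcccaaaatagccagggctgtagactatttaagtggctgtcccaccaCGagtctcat
Calm3: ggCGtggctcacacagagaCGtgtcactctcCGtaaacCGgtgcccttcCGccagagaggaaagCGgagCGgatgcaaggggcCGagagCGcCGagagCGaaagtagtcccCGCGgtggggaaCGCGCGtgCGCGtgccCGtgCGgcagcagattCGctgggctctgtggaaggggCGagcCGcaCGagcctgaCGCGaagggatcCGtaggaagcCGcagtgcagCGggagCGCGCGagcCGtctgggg

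The number of such pairs was 1 for *Ocm*, 4 for *Pvalb* and 33 for *Calm3*, against a median of 6 over the 32851 promoters of the table. A lower number was found in 7.87% of the promoters for *Ocm*, in 37.8% for *Pvalb* and in 96.0% for *Calm3*. The downstream start of *Pvalb* (chr15:78204238-78204487) had 23 pairs, and *S100a1* had 8. The table held promoters for 4 of the 7 genes, and *Calb1*, *Calb2* and *Calm2* had no entry. The motifs searched were the TATA box (TATAAA), the box known by the letters CCAAT, an E-box (CAGCTG), and as part of the site of RFX factors the letters GTTGCC. They were looked for on both strands as exact letters, and none of the 5 sequences held a match. Sequence past the start site, which the study's own RFX search included, was not searched. Over all promoters of the same length the share with a match was 12.4%, 33.8%, 13.0% and 10.4%, in that order.

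*S100a1* was alone among the 7 genes in having its highest signal in ENSCs. The gene (ENSMUSG00000044080, chromosome 3, 90314956 to 90318314, minus strand) had 1582 in vestibular ENSCs and 959 in vestibular HCs, against 335.25 in HCs and 185.5 in ENSCs of the cochlea. Both vestibular libraries were above both cochlear ones, the reverse of *Calb1*. Between the ENSC libraries the log2 ratio of cochlear to vestibular signal was -3.09 (8.53-fold, and -2.20 after correction for length and GC content), and between the HC libraries it was -1.52 (2.86-fold). The HC to ENSC log2 ratio was 0.85 for the cochlea and -0.72 for vestibular cells, and the vestibular value turned to 0.27 after correction for length and GC content. Glia also carry S100 proteins. Of 4 listed glial markers 3 were among the genes analysed here, and their summed signal was 3600.25 and 1947.5 in the ENSCs of vestibule and cochlea, and 455.75 and 385 in the respective HCs. None of the 3 was at the floor in any library. *Sox10*, which epithelial cells of the ear also express, had 1183 in vestibular ENSCs, and the myelin gene *Mbp* had 302.75 there. The ENSC sort required CD326, a gate against non-epithelial cells such as glia. Their part in the *S100a1* signal was not tested.

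Both calmodulin genes were well above the floor in all libraries. *Calm2* (ENSMUSG00000036438, chromosome 17, 87832752 to 87846275, minus strand) had 30526.75 in vestibular HCs, 10183.25 in vestibular ENSCs, and in the cochlea 9695.75 in HCs and 4108.25 in ENSCs. It was the 7th gene by signal of the vestibular HC library and the 250th of the cochlear ENSC library. HCs were above ENSCs in each organ, with log2 ratios of 1.24 for the cochlea (2.36-fold) and 1.58 for vestibular cells, where it stood just short of 3-fold. Centring the ratios on the median gene moved the vestibular value just past that threshold (1.65), and length and GC correction lowered it to 1.12. Cochlear HCs were 3.15-fold below vestibular HCs (log2 ratio -1.65), a call that length and GC correction took under 3-fold (-1.48).

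*Calm3* (ENSMUSG00000019370, chromosome 7, 17500728 to 17509463, minus strand) differed least. Its signal was 777 in cochlear HCs, 454.25 in vestibular ENSCs, 418.75 in cochlear ENSCs and 327.25 in vestibular HCs, a range of 2.37-fold over the 4 libraries. The other 6 genes ranged from 7.43-fold to 284-fold. No comparison of *Calm3* reached 3-fold. Its HC to ENSC log2 ratio was 0.89 for the cochlea and -0.47 for vestibular cells, and the second value became 0.77 after length and GC correction.

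**Figure D2:**
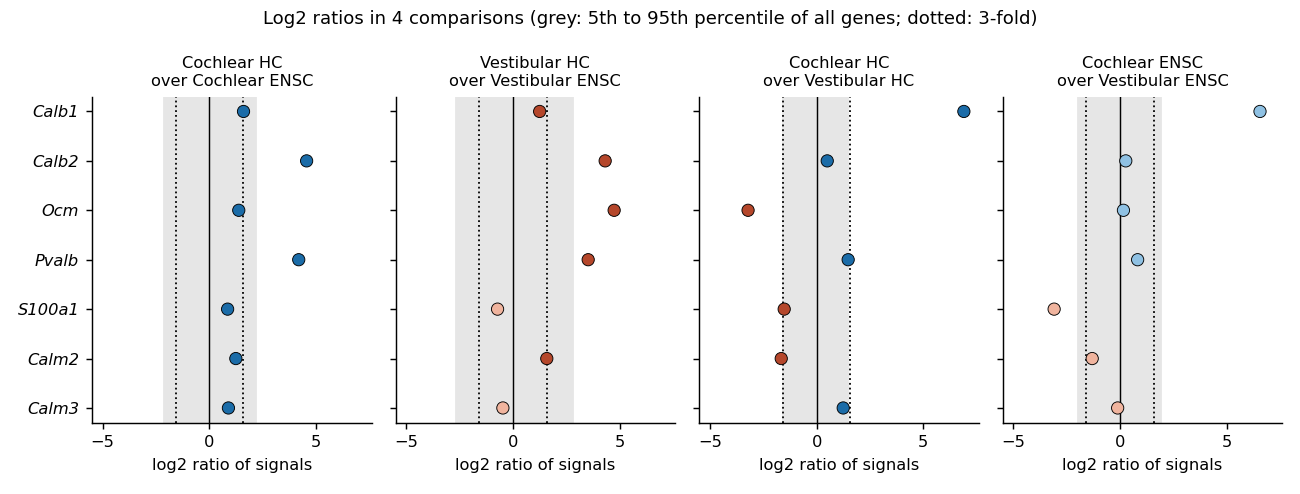
Log2 ratios of signals of the 7 genes in 4 comparisons of libraries, 1 point per gene, coloured by the library with the higher signal, with grey bands that leave out the lowest and the highest 5% of all genes, and dotted lines at 3-fold. *Calb1* reached 6.90 and 6.55 between the organs, and *Calb2*, *Ocm* and *Pvalb* lay between 3.52 and 4.74 in the vestibular comparison of HCs with ENSCs.

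Counted at 3-fold, 3 of the 7 genes (*Calb1*, *Calb2* and *Pvalb*) were higher in cochlear HCs than in cochlear ENSCs and 0 were lower, where 8.39% and 9.2% of all genes were. In the vestibular system 3 genes (*Calb2*, *Ocm* and *Pvalb*) were higher in HCs and 0 were lower, against 13.8% and 14.3% of all genes. Between the HC libraries 1 gene (*Calb1*) was higher in the cochlea and 2 (*Ocm* and *Calm2*) were lower, against 4.21% and 5.09%. Between the ENSC libraries 1 gene (*Calb1*) was higher in the cochlea and 1 (*S100a1*) was lower, against 7.8% and 7.94%. All 7 log2 ratios of HC to ENSC signal were above 0 in the cochlea, with a median of 1.38 where that of all genes was 0. In the vestibular system 5 of 7 were above 0, with a median of 1.58 against -0.0045. The comparisons share libraries, so the counts are not independent, and the genes were chosen with earlier results of these data known.

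To compare levels between the genes, each signal was divided by the gene's exonic length in kb. *Calm2* had the highest signal per kb of the 7 genes in every library, from 2800 in cochlear ENSCs to 20809 in vestibular HCs. The gene that came second differed between the organs. It was *Calb1* in the cochlea, with 3102 per kb in HCs and 1024 in ENSCs, and *S100a1* in vestibular cells, with 1382 in HCs and 2280 in ENSCs. Next came *Pvalb* in cochlear HCs (616) and *Ocm* in vestibular HCs (728). In cochlear HCs *Calb2* (324) and *Calm3* (321) were nearly level and could not be ordered without replicates, and *Ocm* was last (78.8). In vestibular HCs *Calb2* (229) and *Pvalb* (221) were likewise close, and *Calb1* was last (26.0).

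Summed over *Calb1*, *Calb2*, *Ocm*, *Pvalb* and *S100a1*, the signal per kb was 4603 for HCs and 1369 for ENSCs of the cochlea, and 2586 and 2348 for those of the vestibular system. *Calb1* made up 67.4% of the sum in cochlear and 1.01% in vestibular HCs. *S100a1* made up 53.4% and *Ocm* 28.2% in vestibular HCs, against 10.5% and 1.71% in cochlear HCs. In vestibular ENSCs 97.1% of the sum came from *S100a1*. Genes at the floor add an upper limit to these sums, of at most 27.3 per kb each in vestibular ENSCs. Of the signal per kb of *Calm2* and *Calm3* together, *Calm3* made up 4.63% in cochlear and 0.645% in vestibular HCs, against 5.81% and 2.63% in the ENSCs of these organs. These shares rest on the level of *Calm2*, which is uncertain as stated above, and were not corrected for GC content.

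**Figure D3:**
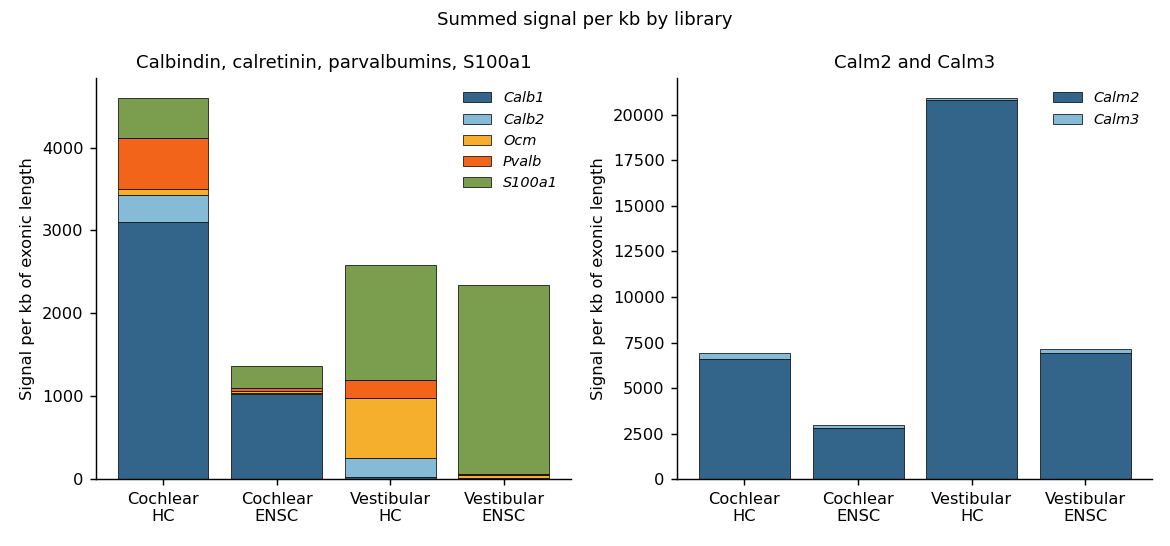
Signal per kb of exonic length in the 4 libraries as stacked bars that start at 0, for 5 calcium-binding protein genes on the left and *Calm2* and *Calm3* on the right. *Calb1* fills most of both cochlear bars on the left and *S100a1* most of the vestibular ENSC bar, and *Calm3* is a thin band in every bar on the right (at most 5.81%).

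The genes with the most similar profile were sought among 6720 other protein-coding genes that reached a signal of 200 in some library. Likeness was the Euclidean distance between the 4 log2 signals after each gene's own mean was subtracted. For *Calb1* the nearest gene was *Lmo3*, at 2.03, followed by *Gata3* (2.32) and *Moxd1* (2.34), and 0 genes were within a distance of 1. *Calb2* had 87 genes within 1, and the nearest were *Slc12a5* (0.20), *Lhfpl5* (0.21) and *Myo6* (0.28). For *Pvalb* 66 genes were within 1, led by *Grp* (0.51), *Chrna10* (0.52) and *Grk1* (0.53). For *Ocm* there were 25, and the nearest were *9330101J02Rik* (0.13), *Dnajc5b* (0.36) and *Fgf12* (0.36). *S100a1* had 22, with *Stat3* (0.35), *Mapk8ip1* (0.46) and *Ptprt* (0.48) in front. *Calm2* had 58, led by *Ctnna2* (0.42), *Apoo-ps* (0.47) and *Gm266* (0.47). The distances rest on 4 libraries, and genes that share the floor in ENSCs are close in part for that reason.

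Other genes that bind, sense or move calcium were described from lists of names. Their counts at 3-fold stand beside those of all genes, of which 8.39% were higher and 9.2% lower in cochlear HCs and 13.8% and 14.3% in vestibular HCs. *Calml4*, which encodes a calmodulin-like protein, had 1443.5 and 2102.75 in the HCs of cochlea and vestibule against 538.75 and 273.75 in their ENSCs, giving log2 ratios of 1.42 and 2.94.

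The S100 family had 6 genes in the table beside *S100a1*. In each organ 1 of them was at least 3-fold higher and 3 were lower in HCs, with median log2 ratios of -0.93 (cochlear) and -1.22 (vestibular). *S100a10*, whose product partners annexin 2, was lower by a factor of at least 8.37 in cochlear HCs and had a vestibular log2 ratio of -2.25. *S100a11* was lower by a factor of at least 15.4 in vestibular HCs, with a cochlear log2 ratio of -1.64. *S100b*, a marker of glia and of some supporting cells, had 23.5 in HCs and 150.5 in ENSCs of the cochlea, against 260 and 422.75 in those of the vestibular system. The gene that was higher in HCs, named here after its values were seen, was *S100a13* (log2 ratios 1.64 and 2.95). With a floor or a pseudocount of 100 the count past 3-fold was 0 instead of 4 for the cochlea and 1 instead of 4 for vestibular cells. *S100a16*, counted as lower in vestibular HCs and named here after its values were seen, was only at least 2.46-fold lower when its HC signal was set to the limit of the unranked range, which leaves 3 of 4.

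Among neuronal calcium sensors and calmodulin-like CaBPs 8 of 21 listed genes were in the table. In the cochlea 1 was at least 3-fold higher and 2 were lower in HCs, and among vestibular ratios 3 were higher and 0 lower. With a floor or a pseudocount of 100 the count was 0 in either organ. *Ncs1*, counted as lower in cochlear HCs and named after its values were seen, was at least 2.65-fold lower against the limit of the unranked range, which leaves 2 of 3 cochlear calls. *Cabp2*, a regulator of the synaptic calcium channels of hair cells, had a signal of 258.75 in vestibular HCs. This was at least 12.9-fold that of vestibular ENSCs and at least 10.7-fold that of cochlear HCs. Both cochlear *Cabp2* signals were in the range that does not rank genes. Like *Ocm*, it stood out in the vestibular HC library alone.

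Of 19 listed other cytosolic EF-hand proteins 15 were in the table, of which 2 were higher and 4 lower in cochlear HCs, and 3 were higher and 3 lower in vestibular HCs. The cochlear count was 3 instead of 6 with a floor or a pseudocount of 100. It was 5 with low signals set to the limit of the unranked range, where *Tesc*, named after its values were seen, was at least 2.95-fold higher in HCs. *Cib2*, a part of the transduction complex, was higher in the HCs of both organs (log2 ratios 4.57 and 3.24). *Pls1*, which encodes the actin bundler plastin 1, differed little in the cochlea (0.20) and was higher in vestibular HCs (3.83). *Efhd1* was lower in cochlear HCs (-3.04) and had a vestibular log2 ratio of -0.11, and *Efhd2*, another EF-hand gene of that family, had -1.81 and -3.38.

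Calmodulin partners were represented by 15 of 20 listed genes. In the cochlea 3 were higher and 3 lower in HCs (median log2 ratio -0.19), and in the vestibular system 4 were higher and 1 was lower (-0.34). The vestibular count was 2 instead of 5 with a floor of 100 and 0 with a pseudocount of 100. It was 3 with a pseudocount of 20, 2 at a threshold of 5-fold and 9 at 2-fold. *Camk2b*, a subunit of calmodulin-dependent kinase II, was higher by a factor of at least 22.3 in cochlear and 11.95 in vestibular HCs. *Pcp4*, whose product modulates calcium binding by calmodulin, had log2 ratios of 3.35 and 1.95, and its relative *Pcp4l1* exceeded ENSCs at least 15.0-fold in cochlear HCs. Its vestibular signals, 28.25 in HCs and 22.25 in ENSCs, had a log2 ratio of 0.34, with the HC signal inside the unranked range. *Camk4* was lower in cochlear HCs (-2.26) and higher in vestibular HCs (2.80).

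Calcium pumps, exchangers and stores had 19 of 25 listed genes in the table. In the cochlea 8 were higher and 2 lower in HCs by that threshold (median log2 ratio 1.25), and among vestibular ratios 7 were higher and 2 lower (-0.08). The sodium-calcium exchanger genes *Slc8a1* and *Slc8a2* were among the higher ones in each organ, with cochlear values of at least 19.4-fold and of 3.63 on the log2 scale. *Slc8a2* was at least 24.5-fold higher in vestibular HCs. The ryanodine receptor gene *Ryr2* exceeded ENSCs at least 23.9-fold and 12.9-fold in cochlear and vestibular HCs, and the plasma membrane pump gene *Atp2b3* at least 14.1-fold and 8.46-fold. The vestibular count past 3-fold was 4 instead of 9 with a floor of 100, 3 with a pseudocount of 100 and 5 at a threshold of 5-fold.

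Of 12 listed calcium binders of the endoplasmic reticulum 10 had values, and 0 reached 3-fold in favour of HCs. In the cochlea 2 were lower by 3-fold and 8 did not reach it (median log2 ratio -0.96), where 9.2% of all genes were lower. Among vestibular ratios 7 were lower and 3 did not reach it (-2.15), against 14.3% of all genes. *Rcn1*, named here after its values were seen, was above 0 in both organs (0.86 and 0.35). The cochlear count was 1 instead of 2 with a floor or a pseudocount of 100 and at a threshold of 5-fold, and 5 at 2-fold. At 5-fold the vestibular count was 4 instead of 7. *Calr*, which encodes calreticulin, had log2 ratios of -1.15 and -2.75, and *Nucb1* of -0.82 and -2.61. *Sdf4* had -0.73 and -2.50, and *Rcn3* was lower by at least 10.04-fold and 21.8-fold, respectively. Of 7 listed mesenchymal markers 5 were in the table, of which 2 were lower in cochlear and 4 in vestibular HCs. Their summed signal was 295 and 197 for HCs of cochlea and vestibule, against 3571 and 1808 for the ENSCs. The CD326 gate was also set against mesenchymal cells. Their part in these ratios was not tested.

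**Figure D4:**
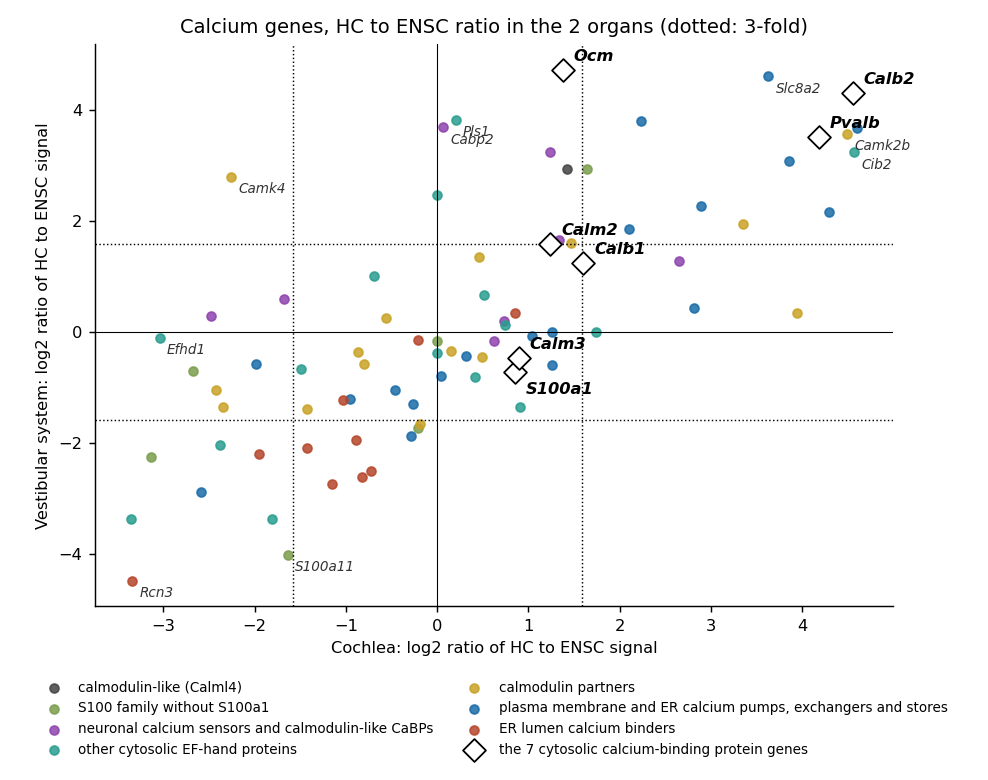
Log2 ratio of HC to ENSC signal in the cochlea (x axis) and the vestibular system (y axis) for the 7 genes (diamonds) and for the other listed calcium genes (dots coloured by list), with dotted lines at 3-fold. *Calb2* and *Pvalb* lie in the upper right corner near *Camk2b*, *Cib2* and *Slc8a2*, *Ocm* lies above the upper line only, and the binders of the endoplasmic reticulum are mostly in the lower left.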

How the data were processed

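RNA of sorted cells was amplified with the NuGEN Ovation RNA-seq system. TopHat was run by the authors on reads cut to 50 nt, with mm9 as genome, and HTSeq gave the reads of each ENSEMBL gene. Quantile normalization and a floor of 20 followed. Versions and strand setting are not given in the sources used here. The deposited values are thus a signal per gene and not counts, so no count model was fitted. Groups came from the sample labels, and the non-HC columns were matched by organ to the ENSC samples. The labels speak of triplicates, but 1 column per population was analysed, and how replicates were combined is not given in the sources used here.

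For each contrast the log2 ratio of signals was taken with no pseudocount, and 3-fold either way was counted, with no test. Positions and exonic lengths came from GENCODE for NCBIM37 (mm9), which held 12799 of the 12814 identifiers. Low signals that do not rank genes were found from the highest signal that a gene had elsewhere. Its median per low value rose with that value (Spearman's rho above 0.9) up to a limit past which it collapsed to under 0.2 of the previous median. Alternatives were floors of 50 and 100, pseudocounts of 20 and 100, median centring, lowess correction for exonic length and GC content (0.3 of the genes, 2 robust iterations), low signals raised to that limit, genes with a signal of at least 100, and thresholds of 2 and 5. Named genes were the 7, the 3 nearest profiles of each gene with a range of at least 3-fold, and per list up to 4 genes past 3-fold with a signal of at least 200. Genes and lists were chosen with earlier results of these data known, and some listed genes are not reported here. Ratios and calls were tested on simulated counts with changes far past 3-fold in genes well above the floor. Ratios near 3-fold, changes in genes near the floor and quantile normalization were not covered. Python 3.11.15, pandas 2.3.3 and statsmodels 0.14.6 were used.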

Additional observations from a re-analysis of the deposited data

Results flagged for a closer look

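The HC to ENSC ratio of 10 genes named in the text pointed in opposite directions in the organs as computed from the signals, and with 1 column of values per group these differences were not tested. *S100a1* had a cochlear log2 ratio of 0.85 and a vestibular one of -0.72, a vestibular minus cochlear difference of -1.58. *Calm3* had 0.89 and -0.47, a difference of -1.36. *Camk4*, which encodes a calmodulin-dependent kinase, had -2.26 and 2.80, a difference of 5.06. With the floor raised to 100, an alternative chosen after seeing the data, these values were -2.16 and 1.31, and with a pseudocount of 100 they were -1.50 and 1.36. The calcium sensor gene *Ncs1* had -1.68 and 0.59 (2.27), with its cochlear HC signal at the floor. With the floor raised to 100 both values of *Ncs1* were 0, and with a pseudocount of 100 they were -0.45 and 0.21. Of the genes with similar profiles, *Stat3* had 0.58 and -0.94 (difference -1.52), *Mapk8ip1* 0.75 and -0.27 (-1.02), *Ptprt* 0.58 and -0.13 (-0.71) and *Moxd1* -0.13 and 0.13 (0.26). The vestibular direction of *Moxd1* is not known, since its HC signal lies among the low signals that do not rank genes. The first 3 of these were chosen for a profile like that of *S100a1*, so they add no separate support. Of the neuronal markers, *Isl1* had -0.43 and 3.12 (3.56) and *Stmn2* -1.41 and 0.14 (1.54), the latter with a vestibular direction that is not known for the same reason. With the floor raised to 100 the cochlear value of *Mapk8ip1*, the vestibular value of *Moxd1* and both values of *Stmn2* were 0.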

How the results depend on the processing

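At a threshold of 2-fold instead of 3-fold the number of genes counted was 5 of 7 in the cochlear comparison of HCs with ENSCs, 5 in the vestibular one and 6 between the HC libraries. No other setting moved these counts by over 1.5 times. No log2 ratio past 3-fold changed sign. Of 28 log2 ratios (7 genes in 4 comparisons), the number that changed sides of the 3-fold threshold was 0 with a floor of 50, a pseudocount of 20, low signals raised to their limit or genes of at least 100, 1 with a floor of 100, 1 with median centring, 2 with a pseudocount of 100 and 4 with length and GC correction. The pseudocount of 100 took the vestibular HC to ENSC ratio of *Pvalb* to 1.46. The length and GC correction took the cochlear ratio of *Ocm* to 1.59 and the cochlear to vestibular ENSC ratio of *Calm2* to -1.79, both past 3-fold. The vestibular log2 ratios fell with GC content across 10365 genes (Spearman's rho = -0.395) and the ENSC ratios across 10483 (-0.453). The same correction turned the sign of 3 ratios under 3-fold, those of *S100a1* and *Calm3* given above and the ENSC ratio of *Calm3* (-0.12 to 0.79). Alternatives for the other calcium genes and for the vestibular minus cochlear difference of HC to ENSC ratios were added after the data were seen. As computed, that difference did not change sides of 3-fold for any of the 6 genes other than *Ocm*, for which it is not known. For *Calb2* and *Pvalb*, with vestibular ENSC signals at the floor, it is a lower bound, so its side of 3-fold is not known either. Of 280 list counts 87 moved by over 1.5 times. No paired analysis was possible because each group had 1 column of values and no result comes from a test. Depth is unknown and limits what can be said of signals near the floor. Protein sequences were not analysed here.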
